A study of Mus musculus with 12 samples.

Results

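Txnip, the gene for thioredoxin-interacting protein, and the 4 arrestin-domain-containing genes Arrdc1, Arrdc2, Arrdc3 and Arrdc4 were followed across all 12 libraries of sorted intestinal stem cells (ISCs). They were found by gene symbol, and made up 5 of the 47729 genes in the deposited count table. The symbols were chosen by what earlier results of these data showed, the fold changes of stress against Ctrl and of CORT against vehicle among them, so their values in these comparisons are given as a description without a p-value. All 5 passed the filter on low counts in every comparison.

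ISCs were sorted by flow cytometry as Lgr5-EGFP-high cells from crypts of the small intestine. The mice carried Lgr5-EGFP-IRES-CreERT2, an allele by which EGFP and an inducible Cre are expressed from the Lgr5 locus. All 4 groups had it, and the study used age-matched young adult mice of both sexes, with the sex behind each library not given. Per the paper the stress group was restrained in a single session, although its labels read CRS, the paper's name for chronic restraint stress. The Ctrl group was not restrained. Controls kept without food and water for the time of restraint are described in the paper for its chronic procedure. The CORT group received a single intraperitoneal injection of corticosterone, the main glucocorticoid of rodents, and the vehicle group the cyclodextrin solution alone. Each group had 3 libraries, named here by the numbers in their labels (Ctrl 1, 2 and 3, stress 1+2, 3 and 4+5+6, vehicle 3, 5 and 6, CORT 2, 4 and 5). Joined numbers were read as material of several mice in 1 library, so that stress 1+2 and stress 4+5+6 may average over mice while other libraries do not. The EGFP gate takes cells by Lgr5 promoter activity, and the bulk libraries do not show which of the sorted cells carried a transcript.

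Alpha-arrestins are adaptors with an arrestin fold. The Arrdc proteins and TXNIP carry PPxY motifs through which NEDD4-family ubiquitin ligases are brought to membrane proteins. TXNIP binds thioredoxin and promotes the internalization of glucose transporters such as GLUT1, and its gene is a well known target of the glucose-sensing MondoA and ChREBP factors (Mlxip and Mlxipl) and a gene induced by glucocorticoids in several cell types. ARRDC3 is best known for its action on integrin beta4, ARRDC4 for its close kinship with TXNIP and a shared effect on glucose uptake, and ARRDC1 for the budding of small vesicles from the plasma membrane.

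The total of estimated counts per library was between 16152289 and 16943362 in Ctrl and between 15934907 and 17135770 with stress. It was between 16465961 and 31280267 with vehicle and between 29426183 and 69533214 with CORT. CORT 2 and CORT 4 were deeper than every vehicle library, while CORT 5, the least deep of its group, lay below vehicle 6. The ISC markers were high in every library (6 of 6 genes detected, summed level 10672 to 13929 CPM, counts scaled to a common library total). The blood cell markers summed to 2.06 to 6.60 CPM and the stromal and endothelial markers to at most 3.23 CPM, with Col3a1 and Cdh5 at 0 in all 4 groups. Fkbp5, a glucocorticoid receptor target, was at 63.9 ± 5.15 CPM in Ctrl and at 210 ± 36.5 CPM in the stress group, and was 171 ± 28.6 CPM with vehicle and 916 ± 47.5 CPM with CORT (SD, n = 3 each). The vehicle libraries thus held more Fkbp5 than the Ctrl libraries, with ranges that did not overlap.

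Txnip lies on chr3:96557957-96561883 (plus strand, mm10) and Arrdc3 on chr13:80883384-80896035 (plus strand). Arrdc1 is on chr2:24925352-24935252, Arrdc2 on chr8:70835155-70839720 and Arrdc4 on chr7:68736995-68749241, all on the minus strand. The longest coding transcript of each of the 5 genes in GENCODE M21 has 8 exons. The whole of Txnip, 3927 bases, lies within Gm15441 on the opposite strand, which was at 0.698 to 2.99 CPM, and Arrdc3 shares 1301 bases with 1700023H06Rik on the opposite strand, which was at 0.135 CPM or less. The library kit as described does not mark the strand, so reads of the shared stretches cannot be assigned by strand.

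The 250 bases before the start site are shown for the gene with the highest level (Txnip) and for the pair that moved most unequally between the vehicle and CORT groups (Arrdc3 and Arrdc4). They are RefSeq sequence of GRCm38.p6, the same assembly as mm10, written 5′ to 3′ on the gene's strand. Capitals mark every match, on either strand, to the E box CACGTG, the CCAAT box CCAAT and the FoxO site GTAAACA. They also mark a pair of E-box-like copies CACGNG set 5 bases apart, a form of carbohydrate response element. The glucocorticoid response element, marked as well, was read as GNACA and TGTNC with 3 bases between them. The windows are chr3:96557707-96557956 (plus strand) for Txnip, chr13:80883134-80883383 (plus strand, the most upstream of 3 RefSeq start sites) for Arrdc3 and chr7:68749239-68749488 (minus strand) for Arrdc4.
Txnip: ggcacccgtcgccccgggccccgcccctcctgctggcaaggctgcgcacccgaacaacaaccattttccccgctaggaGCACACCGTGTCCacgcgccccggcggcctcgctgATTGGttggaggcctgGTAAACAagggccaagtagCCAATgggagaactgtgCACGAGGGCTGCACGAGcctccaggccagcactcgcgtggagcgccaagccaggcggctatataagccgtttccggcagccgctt
Arrdc3: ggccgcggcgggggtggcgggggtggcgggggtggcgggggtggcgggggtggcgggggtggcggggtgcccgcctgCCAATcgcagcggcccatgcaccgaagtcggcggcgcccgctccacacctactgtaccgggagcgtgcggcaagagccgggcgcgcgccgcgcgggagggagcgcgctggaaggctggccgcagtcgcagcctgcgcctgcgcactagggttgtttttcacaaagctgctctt
Arrdc4: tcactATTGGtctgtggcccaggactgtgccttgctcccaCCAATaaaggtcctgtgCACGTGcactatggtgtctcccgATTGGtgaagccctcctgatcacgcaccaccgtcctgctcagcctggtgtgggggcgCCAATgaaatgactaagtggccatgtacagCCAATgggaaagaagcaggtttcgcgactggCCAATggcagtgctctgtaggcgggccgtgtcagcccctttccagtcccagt

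The Txnip window held a match to the glucocorticoid response element from 172 to 160 bases before the start site, a FoxO site from 121 to 115, the paired E-box-like copies from 85 to 69 and 2 CCAAT boxes, 1 on each strand. Among all 32851 RefSeq windows of this length, 0.387% held the glucocorticoid response element, 3.17% the FoxO site, 0.0457% the paired copies and 33.8% a CCAAT box. Arrdc4 had 6 CCAAT boxes and an E box from 193 to 188 bases before its start site, and the E box was found in 6.02% of all windows. In the Arrdc2 window 3 CCAAT boxes were found and in the Arrdc3 window 1, while the Arrdc1 window held none of the 5 motifs. A match is a matter of letters only, and no binding was measured in these libraries. The motifs were chosen with earlier results of these data known, so the matches and shares are a description.

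**Figure D1:**
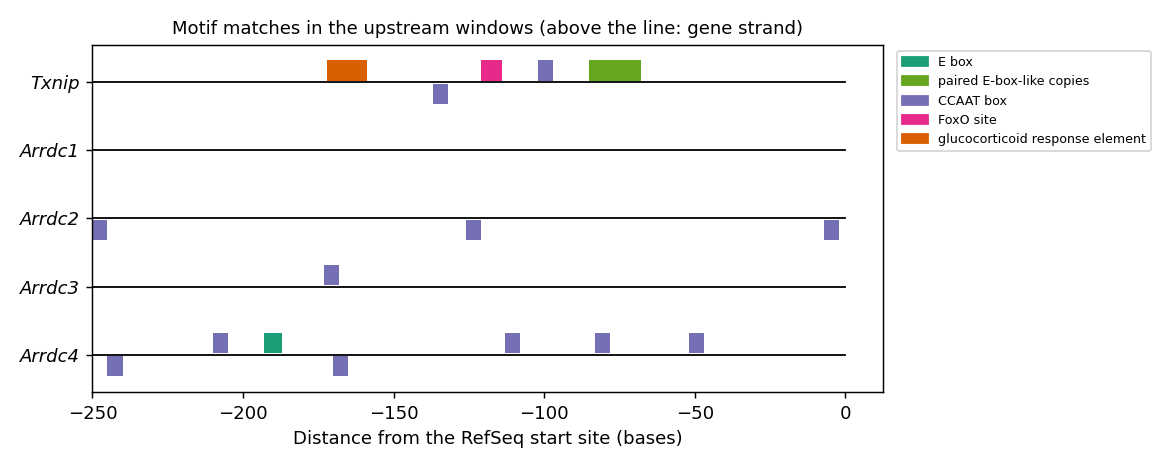
Motif matches in the 250 bases before the RefSeq start site of each gene (horizontal axis, distance from the start site in bases). Blocks above a line are on the gene's strand and those below it on the other strand, palindromic motifs being drawn above. Txnip alone of the 5 windows holds the glucocorticoid response element, FoxO site and paired E-box-like letters, and Arrdc4 holds 6 CCAAT boxes.

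Txnip, the thioredoxin-binding member of the family, was higher after both restraint and corticosterone. Its level was 543, 495 and 471 CPM in Ctrl 1, 2 and 3, and 1367, 1083 and 1297 CPM in stress 1+2, 3 and 4+5+6. In the injected mice it was 481, 453 and 492 CPM in vehicle 3, 5 and 6, and 1418, 1129 and 660 CPM in CORT 2, 4 and 5. All 6 stress and CORT libraries were above all 6 control libraries. CORT 5 was the lowest of the 6, nearer to the vehicle libraries than to CORT 2, and the SD of Txnip within the CORT group (383 CPM) was far above that of the vehicle group (19.6 CPM). The fitted fold change was 2.49 for stress against Ctrl (log2 1.31 ± 0.10, SE) and 2.24 for CORT against vehicle (log2 1.17 ± 0.22, SE).

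In stress against Ctrl, Txnip was the 1 gene of the 5 past both thresholds (adjusted p below 0.05 and more than 2-fold), against 0.751% of all genes tested, and also the 1 gene past the adjusted p at any fold, against 1.89%. Its log2 fold change stayed past both in all 16 other settings and was 1.11 with stress 3 as the only stress library. In CORT against vehicle, Txnip and Arrdc3 were past both thresholds (1.87% of all genes tested) and Txnip, Arrdc3 and Arrdc4 past the adjusted p at any fold (8.13%). Nothing is read from these counts, since both comparisons were known when the genes were chosen. The Txnip call in CORT depended on single libraries, and Txnip was no longer past both thresholds without vehicle 5 (log2 1.13), vehicle 6 (1.19), CORT 2 (0.91) or CORT 4 (1.13). Without CORT 5 it was 1.42 and past both.

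**Figure D2:**
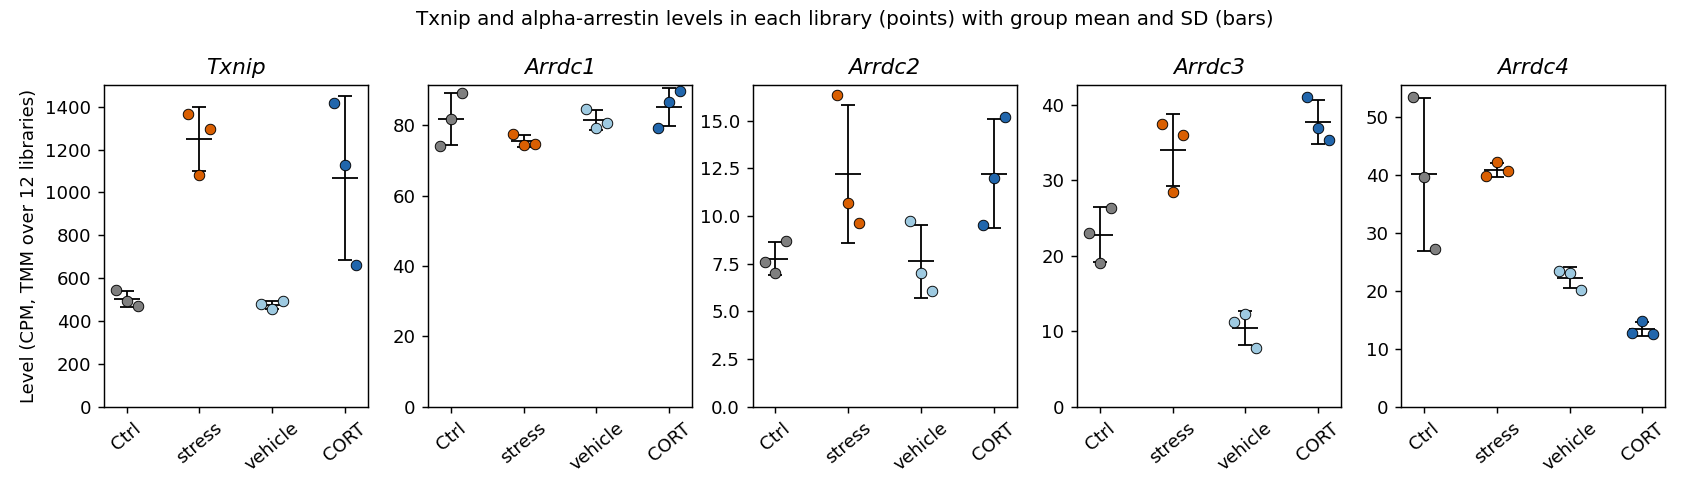
Level of each gene in CPM (vertical axis, from 0) in the 12 libraries, 1 panel per gene, with points for libraries in the order of their labels and bars for the group mean and SD (n = 3). Txnip is at 1083 to 1367 CPM in stress and 660 to 1418 CPM in CORT against 453 to 543 CPM in the 6 control libraries, Arrdc3 is lowest in vehicle and Arrdc4 is lowest in CORT.

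Arrdc3, the adaptor that acts on integrin beta4, had the largest fold change of the 5 genes after corticosterone, and its level also differed between the 2 control groups. It was at 11.2, 12.2 and 7.83 CPM in vehicle 3, 5 and 6, and at 41.0, 36.9 and 35.3 CPM in CORT 2, 4 and 5. Every CORT library was far above every vehicle library, and the fold change was 3.64 (log2 1.87 ± 0.17, SE). It was past both thresholds in all 15 other settings, from log2 1.43 to 2.00.

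Under restraint the Arrdc3 difference was smaller. Ctrl 1, 2 and 3 were at 23.0, 19.0 and 26.3 CPM and stress 1+2, 3 and 4+5+6 at 37.5, 28.5 and 36.1 CPM. The groups did not overlap, although stress 3 was only a little above Ctrl 3, and the fold change was 1.49 (log2 0.58 ± 0.16, SE), which was not past the adjusted p threshold. It passed that threshold with DESeq2 (log2 0.58) and without stress 3 (log2 0.69), and was 0.32 with stress 3 as the only stress library. The stress and CORT libraries overlapped in Arrdc3 level (28.5 to 37.5 against 35.3 to 41.0 CPM), while vehicle lay below Ctrl, so the larger fold change in CORT went with a lower control level.

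Arrdc4, the closest relative of Txnip among these genes, did not follow it. In Ctrl 1, 2 and 3 Arrdc4 was at 53.4, 39.6 and 27.1 CPM, a coefficient of variation of 32.8%, and in stress 1+2, 3 and 4+5+6 it was at 39.7, 42.2 and 40.6 CPM. The stress libraries fell inside the Ctrl range and the log2 fold change was 0.03 ± 0.20 (SE), 0.29 without Ctrl 1 and -0.19 without Ctrl 3. In vehicle 3, 5 and 6 Arrdc4 was at 23.5, 23.1 and 20.2 CPM, and in CORT 2, 4 and 5 at 12.7, 14.8 and 12.6 CPM. Every CORT library was below every vehicle library, and the level in CORT was 0.600 of that in vehicle (log2 -0.74 ± 0.14, SE), past the adjusted p threshold but under 2-fold. That call was lost without CORT 5 (log2 -0.70), and the direction held in all 15 other settings.

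Arrdc2, a less studied member of the family, was higher on average in both treated groups. Arrdc2 was at 7.60, 6.99 and 8.71 CPM in the Ctrl libraries and at 16.3, 10.7 and 9.63 CPM in stress 1+2, 3 and 4+5+6. These groups did not overlap, with stress 1+2 well above the other stress libraries, and the log2 fold change was 0.65 ± 0.25 (SE). The vehicle libraries were at 9.74, 7.04 and 6.09 CPM and CORT 2, 4 and 5 at 9.51, 12.0 and 15.2 CPM, so that CORT 2 was below vehicle 3 and the groups overlapped (log2 0.68 ± 0.24, SE). Neither difference was past the adjusted p threshold. Within the CORT group the order of Arrdc2 was the reverse of that of Txnip, lowest in CORT 2 and highest in CORT 5.

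Arrdc1, the vesicle-budding adaptor, had the flattest profile. The 12 libraries were between 74.3 and 89.8 CPM, with group means of 81.7 ± 7.40 CPM in Ctrl, 75.6 ± 1.73 CPM with stress, 81.6 ± 2.77 CPM with vehicle and 85.3 ± 5.38 CPM with CORT (SD, n = 3). Its log2 fold change was -0.11 ± 0.09 in stress and 0.06 ± 0.08 in CORT (SE), neither of them past a threshold. Another alpha-arrestin gene, Arrdc5, had 0 counts in all 12 libraries. A count of 0 allows up to 12 counts in a library, which is 3 read pairs of 4 counts and corresponds to 0.173 to 0.753 CPM.

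The number of the 5 genes whose groups did not overlap was 3 in stress against Ctrl (Txnip, Arrdc2 and Arrdc3), where 20.4% of all genes tested did not overlap, and 3 in CORT against vehicle (Txnip, Arrdc3 and Arrdc4), where 28.7% did not. In the order of group levels, stress and CORT came first for Txnip, Arrdc2 and Arrdc3, with overlapping ranges between these 2 groups for each gene. For Arrdc4 the order was stress, Ctrl, vehicle and CORT, with overlap only between the first 2. For Arrdc1 the order was CORT, Ctrl, vehicle and stress, with overlap between neighbours in this order except the last 2, and the CORT range lay above the stress range as well.

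The 2 control groups, both without restraint or corticosterone but handled differently, did not overlap in Arrdc3 and Arrdc4 level, and of the 5 genes Arrdc3 was past the adjusted p threshold. Both groups also served in the comparisons by which the genes were chosen, so these values are a description as well. The mean CPM of Arrdc3 was 2.19 times as high in Ctrl as in vehicle (log2 of vehicle over Ctrl -1.13 ± 0.20, SE) and it was the 1 gene of the 5 past both thresholds, against 0.359% of all genes tested, and the 1 gene past the adjusted p at any fold, against 0.799%. The call was lost without Ctrl 1 (log2 -1.12), Ctrl 2 (-1.25), Ctrl 3 (-1.02) or vehicle 6 (-0.95). The mean CPM of Arrdc4 was 1.80 times as high in Ctrl as in vehicle (log2 -0.85 ± 0.21, SE), not past the adjusted p threshold, with ranges that did not overlap. The groups did not overlap for these 2 of the 5 genes, against 16.3% of all genes tested. It is not stated whether Ctrl and vehicle were prepared together, so the injection and the preparation cannot be told apart. For Txnip (log2 -0.08 ± 0.08), Arrdc1 (0.00 ± 0.09) and Arrdc2 (-0.03 ± 0.24, SE) the vehicle and Ctrl ranges overlapped.

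The difference between the restraint and the corticosterone contrasts was taken as the log2 fold change of stress over Ctrl minus that of CORT over vehicle, fitted over all 12 libraries. It subtracts the fold changes by which the genes were chosen, and is given as a description. It was -1.29 ± 0.25 for Arrdc3, 0.76 ± 0.26 for Arrdc4, 0.14 ± 0.27 for Txnip, -0.18 ± 0.11 for Arrdc1 and -0.03 ± 0.35 for Arrdc2 (SE). The Arrdc3 value was from -1.43 to -0.94 in the 14 other settings. Of the 5 genes 1, Arrdc3, was past the adjusted p threshold for this difference, against 0.388% of all genes tested, and nothing is read from this count. The Arrdc3 call held in only 4 of the 14 other settings, and in 3 of the 12 fits with a library left out.

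**Figure D3:**
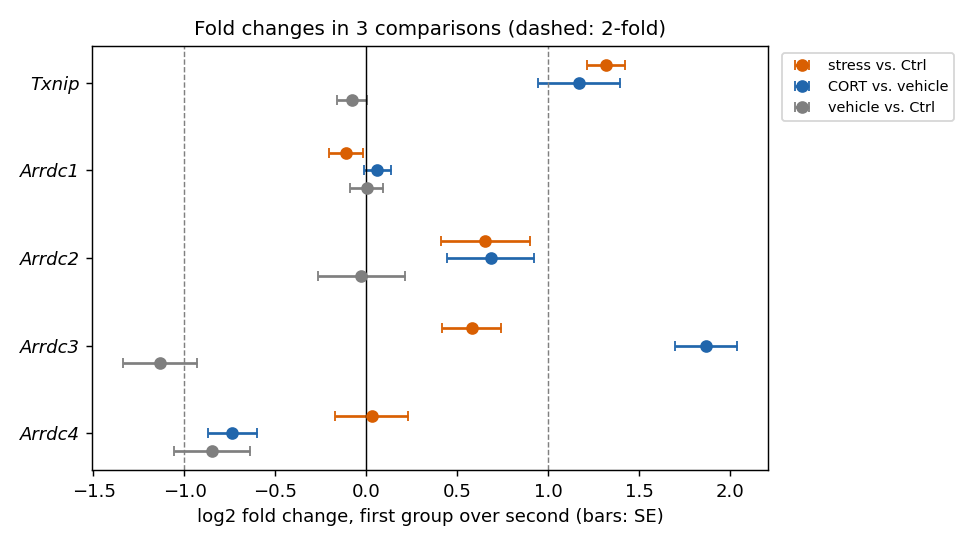
Log2 fold change (horizontal axis) of each gene with its SE in stress against Ctrl, CORT against vehicle and vehicle against Ctrl, 3 libraries a group, with dashed lines at 2-fold. Txnip is at 1.31 and 1.17 in the first 2 comparisons, while Arrdc3 is at 1.87 in CORT and -1.13 in vehicle against Ctrl, and Arrdc4 is below 0 in both comparisons that involve vehicle.

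Levels were compared between genes as FPKM (fragments per kilobase and sequencing depth), which corrects for transcript length. Txnip was the highest of the 5 genes on this scale in every library, and its mean was 165 ± 9.03 FPKM in Ctrl against 412 ± 58.5 FPKM in stress, and 159 ± 5.64 FPKM in vehicle against 341 ± 129 FPKM in CORT (SD, n = 3). By mean FPKM it ranked 377 of 14415 genes in Ctrl and 165 with stress, and 394 with vehicle and 196 with CORT. Arrdc1 was next in every group at 49.3 to 52.1 FPKM on average. Arrdc4 followed in Ctrl, stress and vehicle (9.44, 9.47 and 5.40 FPKM), and Arrdc2 and Arrdc3 were between 2.39 and 8.05 FPKM on average. In CORT the order of the lower 3 was different, with Arrdc3 at 8.05 ± 0.87, Arrdc2 at 4.52 ± 0.98 and Arrdc4 at 3.14 ± 0.12 FPKM (SD, n = 3), and the ranges of these 3 genes did not overlap there.

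Txnip made up 70.3% ± 2.25 of the summed FPKM of the 5 genes in Ctrl and 85.2% ± 0.99 in stress, 72.0% ± 1.04 in vehicle and 82.1% ± 6.61 in CORT (SD, n = 3). The share of Arrdc1 was 22.3% in Ctrl and 10.3% in stress, 23.1% in vehicle and 13.7% in CORT, its own FPKM being nearly level. The ratio of Txnip FPKM to Arrdc4 FPKM was 13.9 to 24.4 in Ctrl against 36.1 to 49.2 in stress, and 27.4 to 33.6 in vehicle against 68.4 to 149 in CORT. None of these 4 ranges overlapped another, and the CORT range was the widest.

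**Figure D4:**
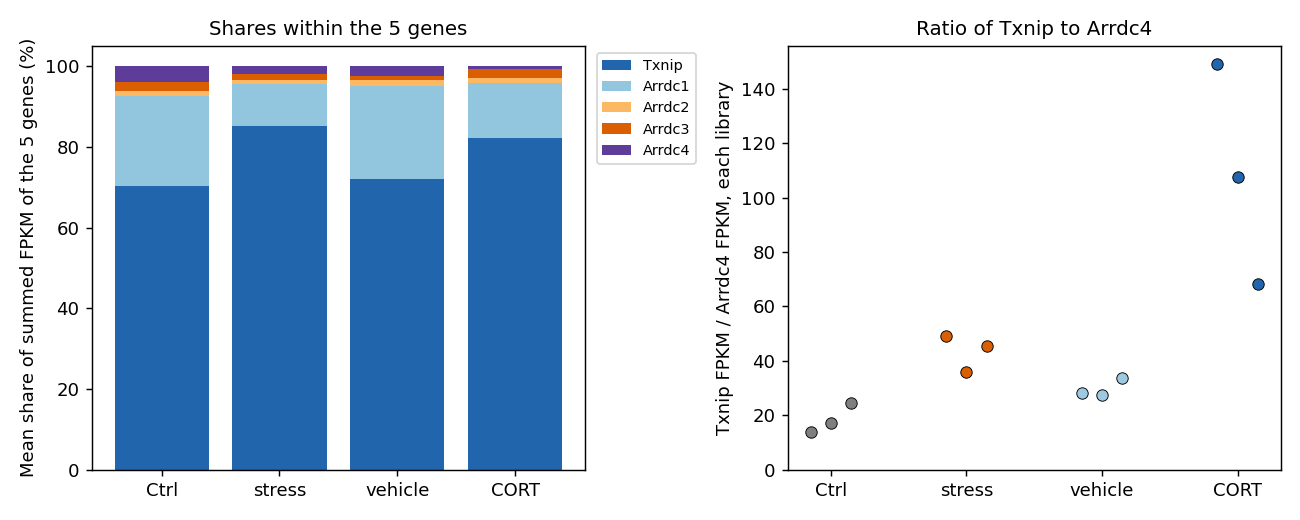
Left, mean share of each gene in the summed FPKM of the 5 genes (vertical axis, percent, bars from 0) in the 4 groups. Right, Txnip FPKM divided by Arrdc4 FPKM in each of the 12 libraries (points), with means of 18.6 for Ctrl, 43.6 for stress, 29.7 for vehicle and 108 for CORT.

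Enterocyte markers were also higher in the stress libraries than in Ctrl, as were the mean levels of Txnip, Arrdc2 and Arrdc3. Of the 6 markers, 5 passed the adjusted p threshold, all of them higher (edgeR quasi-likelihood test), and no marker was at 0. The marker lists were chosen with earlier results of these data known, so such calls are a description. The summed level of the 6 enterocyte markers was 179 to 202 CPM in Ctrl, and 829, 322 and 1684 CPM in stress 1+2, 3 and 4+5+6. In the same order of stress libraries, Arrdc2 was at 16.3, 10.7 and 9.63 CPM and Arrdc3 at 37.5, 28.5 and 36.1 CPM. Stress 3 had the lowest marker level of the 3, still above every Ctrl library. It also had the least Txnip of the 3, at 1083 CPM, which was above every control library. Stress 4+5+6, with a higher marker level than stress 1+2, had less Txnip than stress 1+2. In the other comparison the marker level was 137 to 190 CPM in vehicle and 125 to 191 CPM in CORT, and CORT 2, with the least marker RNA of all 12 libraries, had the most Txnip. In bulk RNA, fewer cells of a type and less RNA per cell cannot be told apart, and the part of the marker difference in the stress values of Txnip, Arrdc2 and Arrdc3 was not tested.

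**Figure D5:**
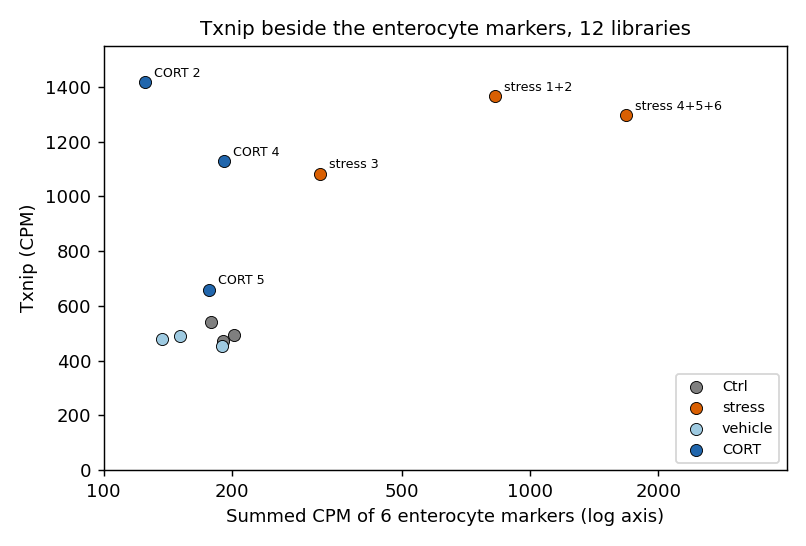
Txnip level (vertical axis, CPM) against the summed CPM of 6 enterocyte markers (horizontal axis, log scale) in the 12 libraries, with the stress and CORT libraries named. CORT 2 and 4 reach 1418 and 1129 CPM of Txnip at marker levels of 125 and 191 CPM, within or below the range of the control libraries.

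Other markers moved as well. In CORT, 4 of 6 Paneth cell markers were lower, with summed levels of 104 to 116 CPM against 186 to 211 CPM in vehicle. In stress 1 of 6 was higher (169 to 263 against 136 to 173 CPM). The Paneth cell marker Mmp7 was at 22.1 CPM in Ctrl, 90.5 CPM in vehicle and 36.5 CPM in CORT. It was also called higher in vehicle against Ctrl (log2 2.04 ± 0.16, SE), as was the enterocyte marker Fabp1 (log2 1.91 ± 0.31, SE). Of the ISC markers, 3 of 6 were lower in CORT (Lgr5, Ascl2 and Smoc2) and 1 of 6 in stress (Ascl2), with no marker higher. The goblet cell list had 1 of 6 higher in stress (501 to 1351 against 521 to 666 CPM) and 0 in CORT, the enteroendocrine list had 0 in either, and the tuft cell list had 1 of 3 tested lower in CORT and 0 in stress. Of the blood and stromal lists 1 gene each was tested at most, and 1 stromal gene was higher in CORT. The part of these markers in the values of the 5 genes was not tested.

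Genes tied to alpha-arrestins were taken from 8 lists with 89 names, 88 of them in the table. The lists were chosen with earlier results of these data known, so their counts and adjusted p-values are a description, here and below. Of the 77 tested in stress against Ctrl, 5 were higher and 0 lower at an adjusted p below 0.05. In CORT against vehicle, 5 of the 78 tested were higher and 6 lower. Over all genes tested, 1.89% passed in stress and 8.13% in CORT, in either direction. The list median was a log2 fold change of 0.02 in stress (0.00 for all genes tested) and -0.02 in CORT (0.01 for all genes), and 0 of 76 list genes passed in vehicle against Ctrl. The arrestin-fold genes had 0 of 6 tested in either comparison, Arrb1 being at 155 CPM in stress and 137 CPM in Ctrl. The NEDD4-family ligases, which act with alpha-arrestins, and their adaptors had 0 of 9 tested in either comparison. Of these 9 log2 fold changes, 6 were positive and 3 negative in each comparison. Nedd4 itself was at 686 CPM in stress and 684 CPM in Ctrl, and at 675 CPM in CORT and 648 CPM in vehicle.

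The list of the Mlx network and glucose-sensing factors holds MondoA and ChREBP, which act on the Txnip promoter in response to glucose, beside other genes. Of its 11 genes, 2 rose in stress, and 1 rose and 1 fell in CORT. Mlxip, the gene for MondoA, rose from 259 to 401 CPM in stress (log2 0.63 ± 0.08, SE, edgeR adjusted p = 0.0037) and from 282 to 504 CPM in CORT (log2 0.84 ± 0.12, SE, edgeR adjusted p = 0.0033). The stress call was lost without Ctrl 1 (edgeR adjusted p = 0.051), and the CORT call held without each library. Both calls were lost with log2(FPKM + 1) without a filter. Mlxipl, the gene for ChREBP, was at 243 CPM in stress and 242 CPM in Ctrl, and at 235 CPM in CORT and 195 CPM in vehicle. Mxd1, a repressor that pairs with MAX or MLX, was higher in stress (log2 1.26 ± 0.21, SE). That call was lost without Ctrl 1, 2 or 3 (edgeR adjusted p up to 0.12), with no filter on low counts and in every FPKM setting. Klf10 was lower in CORT (log2 -1.12 ± 0.21, SE), a call lost without vehicle 6 (edgeR adjusted p = 0.054) and with log2(FPKM + 1) without a filter.

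Among the genes of glucose transporters, the wider class to which the TXNIP client GLUT1 belongs, 1 of 9 tested rose in stress. In CORT 1 of 10 rose and 1 fell. Slc2a1, the gene for GLUT1 itself, passed in neither. It was at 18.9 CPM in stress and 19.7 CPM in Ctrl, and at 21.3 CPM in CORT and 20.0 CPM in vehicle. Slc5a1, the sodium-glucose cotransporter SGLT1, rose from 200 to 362 CPM in stress (log2 0.86 ± 0.13, SE, edgeR adjusted p = 0.010) and from 192 to 337 CPM in CORT (log2 0.81 ± 0.08, SE, edgeR adjusted p = 0.00047). The stress call was lost without Ctrl 1, 2 or 3 (edgeR adjusted p up to 0.077) and with no filter on low counts. It was also lost with log2(FPKM + 0.1) and with log2(FPKM + 1) without a filter. With stress 3 as the only stress library the log2 fold change of Slc5a1 was 0.56. The CORT call held without each library. Slc5a1 is also an enterocyte gene. Slc2a5, the fructose transporter GLUT5, fell from 8.35 to 3.01 CPM in CORT (log2 -1.49 ± 0.25, SE, edgeR adjusted p = 0.0070) and held without each library.

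Of the other partners and clients, 2 of 17 rose in stress and 1 rose and 2 fell in CORT. Ddit4, whose protein REDD1 forms a complex with TXNIP and which is a known glucocorticoid target, rose from 155 to 571 CPM in stress (log2 1.88 ± 0.13, SE, edgeR adjusted p = 0.00012) and from 163 to 811 CPM in CORT (log2 2.32 ± 0.26, SE, edgeR adjusted p = 0.0012), and both calls held in every other setting run. Slc11a2 (log2 -0.43 ± 0.10) and Prkab1 (log2 -0.28 ± 0.07, SE) were lower in CORT, calls that held without 1 and 0 of the 6 libraries.

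Of the 17 genes of the thioredoxin system, to which the TXNIP partner thioredoxin belongs, 0 passed in stress and 1, Prdx6, was higher in CORT (log2 0.49 ± 0.11, SE), a call that held without 1 of the 6 libraries. Txn1 was at 525 CPM in stress and 560 CPM in Ctrl, and at 540 CPM in CORT and 497 CPM in vehicle. Among 8 genes of factors known to bind the Txnip promoter, 0 passed in stress. In CORT, Foxo3 rose (log2 0.51 ± 0.09, SE, edgeR adjusted p = 0.0073), a call that held without each library but was lost with log2(FPKM + 1) without a filter. Nr3c1, the glucocorticoid receptor, was lower in CORT (log2 -0.37 ± 0.07, SE), a call lost without CORT 4 (edgeR adjusted p = 0.052), and Nfya was lower (log2 -0.32 ± 0.08, SE), a call that held without 1 of the 6 libraries.

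Over the 12 libraries, the genes whose log2 CPM followed Txnip most closely were Errfi1 (Pearson r = 0.97), Bcar3 (0.97), Sgk1, Gna13, Ifngr1, Klf9, Rnf167 and Nsun6 (0.94 to 0.95). Arrdc3 was followed most closely by Bach1 (0.97), Usp33 (0.96) and Nr5a2 (0.95), and Arrdc4 by Fam46c (0.93), Lta4h (0.92) and Etv3 (0.92). For Arrdc1 the nearest were 2610524H06Rik (0.89), Osbpl6 (0.87) and Glmn (0.86), and for Arrdc2 Gm16170 (0.90), Gpatch8 (0.90) and Accs (0.89). Gm16170 averaged 0.651 CPM, within the 0.173 to 0.753 CPM that a count of 0 allows, and 2610524H06Rik averaged 1.69 CPM. The correlations describe 12 points that share the 4 groups. Among the 10 pairs of the 5 genes, r was highest for Txnip with Arrdc3 (0.77), Arrdc2 with Arrdc3 (0.70) and Txnip with Arrdc2 (0.61), and was 0.25, 0.34 and -0.40 for these pairs once the group means were taken out. It was lowest for Arrdc1 with Arrdc4, at -0.67 and -0.68 without the group means. Txnip with Arrdc1 had -0.36 and -0.53, Arrdc1 with Arrdc2 0.21 and 0.62, and Txnip with Arrdc4 -0.05 and 0.18, in the same order. The other 3 pairs, Arrdc3 with Arrdc1, Arrdc3 with Arrdc4 and Arrdc2 with Arrdc4, were between -0.19 and 0.09 on either measure.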

How the data were processed

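Total RNA of sorted ISCs was measured in 12 libraries of 4 groups, taken from the labels. Per the labels, the authors aligned reads to mm10 with HISAT2 2.2.1 and StringTie 2.2.1, whereas the methods name featureCounts. The deposited matrix holds estimated counts for 47729 genes, without scaling for library size. For genes of 1 transcript the deposited coverage signal times length came to 75 bases per count, so a pair of 150-base reads gives about 4 counts. The authors also deposited FPKM per gene and library. The limit that a count of 0 allows covers counting error only. There were 0 columns without a sample.

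Counts were analysed as deposited with edgeR 4.0.16 (TMM factors, filterByExpr, quasi-likelihood test, Benjamini-Hochberg adjustment over all genes tested), 1 fit per pair of groups, with calls at an adjusted p below 0.05 and at more than 2-fold. CPM levels used TMM factors computed over all 12 libraries. SE is the log2 fold change divided by the root of the F statistic. Alternatives were DESeq2 1.42.0, other scaling factors and filters, all libraries in 1 fit, limma 3.58.1 on log2(FPKM + 1) or log2(FPKM + 0.1), leaving out each library, and stress 3 as the only stress library, the last of these chosen after the data were seen. Likeness was the Pearson correlation of log2(CPM + 0.5). The fits were run on simulated counts with known fold changes and the same spread set for every gene and group. That run does not cover groups of unequal spread, as for Txnip in CORT and vehicle. The genes, the 8 lists, the 8 marker lists of 6 genes and the motifs were chosen with earlier results of these data known. Named are the 5 genes, list genes with an adjusted p below 0.05 (at most 15 a comparison), the 8 genes most like Txnip, the 3 most like each other gene, overlapping genes, ISC and enterocyte markers and Fkbp5. Arrb1, Nedd4, Mlxipl, Txn1 and Slc2a1 were named in addition for their roles, and Mmp7 for its level in vehicle, after their values were seen. Where a symbol occurs more than once (126 symbols), the gene with the higher mean count was used. The study's methods describe the samples of a group as biologically independent, while the labels do not say which mice were in each library. No protein sequence was used here. A gene of the partner list and a blood cell marker, both kept in the counts, are not reported here by name.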

Additional observations from a re-analysis of the deposited data

Results flagged for a closer look

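Arrdc3 had unequal fold changes in the 2 contrasts. Its log2 fold change was 0.58 in stress against Ctrl and 1.87 in CORT against vehicle, and the difference fitted over all 12 libraries was -1.29 ± 0.25 (SE). It was picked out by the edgeR test of this difference over all genes, but the gene was chosen by these same fold changes, so the test supports nothing and the values are a description. It came with a vehicle level (10.4 CPM on average) below that of Ctrl (22.8 CPM), while stress (28.5 to 37.5 CPM) and CORT (35.3 to 41.0 CPM) overlapped. With a library left out the difference was between -1.43 and -1.11, and the call held in only 3 of these 12 fits. No group had the 4 libraries needed to look for a library that stands apart.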

How the results depend on the processing

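The signs of Txnip, Arrdc3 and Arrdc4 in CORT and of Txnip and Arrdc3 in stress held in every setting run, and Txnip in stress and Arrdc3 in CORT stayed past both thresholds in all of them. Txnip in CORT was past both in 10 of 15 other settings. With log2(FPKM + 1) Arrdc3 was at 1.43 in CORT, at -0.85 in vehicle against Ctrl, where no FPKM setting called it, and at -0.94 in the difference between the contrasts, and Txnip in CORT without a filter was not called (1.02), leaving 1 of the 5 genes past both thresholds. With stress 3 as the only stress library, assumed to vary like the Ctrl libraries, Txnip was at 1.11 and Arrdc3 at 0.32. DESeq2 alone put Arrdc2 in CORT (log2 0.69) and, with the setting without Ctrl 3 (log2 -1.06), Arrdc4 in vehicle against Ctrl past the adjusted p threshold. The cause of these changes was not tested. No paired analysis was possible because the groups compared share fewer than 2 replicate numbers.

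Of the list genes, the number higher in stress was 5, and 2 with no filter on low counts, 8 with all 12 libraries in the fit, 3, 2 and 1 with log2(FPKM + 1), log2(FPKM + 0.1) and log2(FPKM + 1) without a filter, and 2 with stress 3 alone. It ranged from 1 to 7 with a library left out, and the number lower from 0 to 2. In CORT, 2 list genes were higher with log2(FPKM + 1) without a filter, and 12 were lower with DESeq2 and 3 with no filter on low counts, with a range from 2 to 5 with a library left out. Over all genes, 84 were past both thresholds and higher in stress and 19 lower. The higher count was 145 with DESeq2, 25 with no filter on low counts, 33, 34 and 13 in the FPKM settings in the order above, and 37 with stress 3 alone. The lower count was 7 with no filter, and 12 and 5 with log2(FPKM + 1) with and without a filter. With a library left out they ranged from 29 to 248 (without stress 3) and from 7 to 30. In CORT, 166 genes were higher and 108 lower, and with log2(FPKM + 1) 92 and 67 with a filter and 64 and 43 without. With a library left out the higher count ranged from 104 (without CORT 4) to 163. The number of the 5 genes past both thresholds in CORT ranged from 1 to 2, and the difference between the contrasts for Arrdc4 from 0.54 to 1.02.

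Of the 8 genes most like Txnip, 4 stayed among the first 8 by Spearman correlation and 5 with log2(FPKM + 0.1). Of the 3 most like each other gene, Spearman kept 1 for Arrdc1, 1 for Arrdc3 and 0 for Arrdc4, and log2(FPKM + 0.1) kept 0 for Arrdc1, 0 for Arrdc2 and 1 for Arrdc4.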
